A study of Mus musculus with 12 samples.

Results

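Hippocampus of Kcnip3 KO-5xFAD mice was compared with hippocampus of WT mice over all genes, in 6 of the 12 RNA-seq libraries of the series, 3 of each genotype, taken by their genotype labels. Kcnip3 KO-5xFAD animals are null for Kcnip3 on both alleles and also carry the 5xFAD transgenes, and WT animals have neither change. The other 6 libraries, 3 labelled 5xFAD and 3 labelled Kcnip3 KO, entered the same statistical fit and are given where the double mutant is set beside the single changes. All animals were adult, and RNA came from freshly dissected tissue of one hemisphere, the other having gone to proteomics. The sources used here give no age, sex, strain or deleted part of Kcnip3. Nothing in the labels ties a library to its own animal, so p-values measure only the spread between these libraries, which may be technical. Every result was also computed with WT 3 and Kcnip3 KO-5xFAD 2 left out, as labelled, since their levels of several genes went against their labels.

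Kcnip3 encodes KChIP3, also called DREAM or calsenilin, a calcium-binding protein of neurons. It binds Kv4 potassium channels at the membrane and, in the nucleus, a DNA element through which it represses transcription. 5xFAD mice express human transgenes with familial Alzheimer mutations, APP among them, from Thy1 regulatory sequences in neurons, and they develop amyloid plaques. Around plaques, microglia, the phagocytes of the brain, lower part of their resting programme and turn on genes of lipid handling, phagocytosis and lysosomes through the receptor Trem2 and its adaptor Tyrobp, while astrocytes raise Gfap.

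The 6 libraries held 8014949 to 9403798 counts, so that 3 counts corresponded to 0.313 to 0.368 CPM (counts per 1e+06 counts, scaled between libraries by TMM). Mitochondrial transcripts took 4.24% to 5.47% of counts in Kcnip3 KO-5xFAD and 3.84% to 5.10% in WT. All 12 libraries held Y-linked transcripts and at most 0.284 CPM of Xist, the RNA of the inactive X. No pair of libraries of one genotype was as alike as sampling noise alone would make it. In bulk tissue, fewer cells of a type and less RNA per cell cannot be told apart.

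Kcnip3 (ENSMUSG00000079056, minus strand, chr2:127456498-127522094, GRCm38) was expressed at 84.9, 68.7 and 70.1 CPM in the Kcnip3 KO-5xFAD libraries and at 159.9, 158 and 162 CPM in the WT libraries. Reads over the gene thus remained in the double mutant, and no library of one genotype reached the range of the other. The log2 fold change was -1.10 ± 0.20, with an adjusted p of 0.13 over all tested genes in edgeR. It was -1.04 ± 0.26 (adjusted p 0.171) without the 2 libraries. DESeq2 called the gene lower in both sets, and 6 of 23 other fits that started from 12 libraries called it. The spread in the fit also took in the Kcnip3 KO libraries, at 71.4, 63.4 and 125 CPM. Kcnip3 KO 3 was thus well above the other Kcnip3 KO libraries for the deleted gene, and why was not tested.

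Thy1, a surface glycoprotein of neurons whose regulatory sequences drive the 5xFAD transgenes, stood at 3381, 926 and 2592 CPM in Kcnip3 KO-5xFAD and at 747, 887 and 2277 CPM in WT. The library labelled Kcnip3 KO-5xFAD 2 lay just above WT 1 and WT 2 and well below the other libraries of its genotype, and the library labelled WT 3 lay near the high Kcnip3 KO-5xFAD libraries, so the groups overlapped. Both libraries followed their labels for Kcnip3. With all libraries the log2 fold change of Thy1 was 0.82 ± 0.50 (adjusted p 0.732), and without these 2 libraries it was 1.87 ± 0.21 (adjusted p 0.00045). The 2 libraries were picked with their Thy1 levels known, so the value without them follows from that choice and is no test of Thy1. Reads of mouse App, the amyloid precursor, numbered 1026, 999.6 and 1139 CPM in Kcnip3 KO-5xFAD and 1186, 1293 and 1259.5 CPM in WT, a log2 fold change of -0.24 ± 0.10 (adjusted p 0.541).

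**Figure D1:**
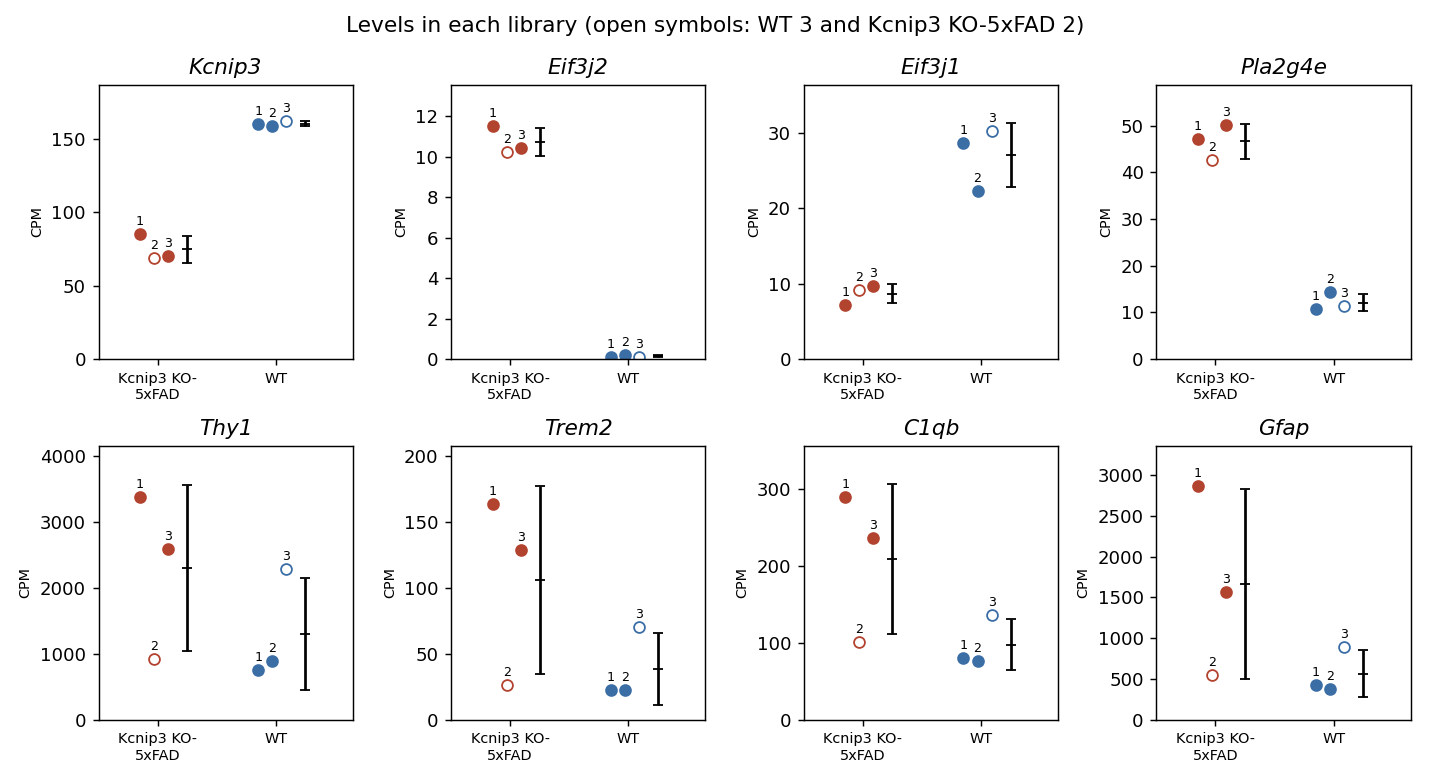
Levels in CPM of 8 genes in each library, Kcnip3 KO-5xFAD left and WT right, with points for libraries (numbered by replicate; open for Kcnip3 KO-5xFAD 2 and WT 3) and bars for mean ± SD over 3 libraries. The groups stand apart for Kcnip3, Eif3j2, Eif3j1 and Pla2g4e in the upper row, whereas in the lower row the open WT point lies above the open Kcnip3 KO-5xFAD point.

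With all libraries as labelled, the genes that separated the genotypes were a few genes with near-identical copies, the pseudogene Gm3650 and a few neighbours of Kcnip3 on chromosome 2. Of 15905 genes tested, 4 rose (0.0251%) and 3 fell (0.0189%) at an adjusted p under 0.05. The 4 that rose were Eif3j2, Gm3650, Pcna-ps2 and Pla2g4e, and the 3 that fell were Eif3j1, Mfap1b and Haus2. At an unadjusted p under 0.05 there were 1312 genes (8.25%), and DESeq2 called 12 higher (0.0754%) and 17 lower (0.107%). For 2280 genes (14.3%) no library of one genotype overlapped the range of the other. Leaving out Kcnip3 KO-5xFAD 2 alone gave 76 genes higher and 6 lower, which still held the 4 and the 3. Without Kcnip3 KO 2, and likewise without Kcnip3 KO 3, the fit called 5 genes lower.

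Eif3j1 and Eif3j2 encode the same subunit of the translation initiation factor eIF3 from separate loci. Eif3j2 (chr18:43475418-43477796) had 11.5, 10.2 and 10.4 CPM in Kcnip3 KO-5xFAD and 0.106, 0.213 and 0.104 CPM in WT. It was nearly silent in every WT library and present in every double mutant library, with a log2 fold change of 6.12 ± 0.40 (adjusted p 4.01e-06). Gm3650, an annotated unprocessed pseudogene beside it on the opposite strand (chr18:43472816-43475169), had 5.65, 8.78 and 6.02 CPM in Kcnip3 KO-5xFAD and 0.213, 0 and 0 CPM in WT. WT held 2 counts of it in all, so the ratio of 97.1 had a 95% counting interval of 26.5 to 808 (adjusted p 7.23e-05).

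Eif3j1 (plus strand, chr2:122028546-122056598), the copy on the chromosome of Kcnip3, moved the other way. It had 7.21, 9.11 and 9.70 CPM in Kcnip3 KO-5xFAD and 28.6, 22.3 and 30.3 CPM in WT, without overlap. Its log2 fold change was -1.64 ± 0.15 (adjusted p 0.000114). Summing the reads of both copies left 19.4 ± 0.701 CPM in Kcnip3 KO-5xFAD and 27.2 ± 4.13 CPM in WT (SD, n = 3 each), a log2 fold change of -0.49 (adjusted p 0.465). This sum leaves out Gm3650, which averaged 6.82 CPM in Kcnip3 KO-5xFAD and 0.0709 CPM in WT. Whether reads of Gm3650 belong with those of Eif3j1 and Eif3j2 was not tested. The sources used here do not give how reads that match both copies were counted, so the values of the single copies are uncertain.

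Of Mfap1a and Mfap1b, neighbouring copies of a spliceosome-associated protein, only Mfap1b was called. Mfap1b fell, with 5.77, 4.89 and 5.03 CPM in Kcnip3 KO-5xFAD and 14.9, 14.99 and 16.4 CPM in WT (-1.56 ± 0.18, adjusted p 0.0012). Mfap1a averaged 18.8 ± 1.67 CPM in Kcnip3 KO-5xFAD and 16.5 ± 2.23 CPM in WT (SD, n = 3 each; log2 fold change 0.19, adjusted p 0.764). Their sum had a log2 fold change of -0.41 (adjusted p 0.504). Pcna-ps2, a processed pseudogene of the DNA polymerase clamp Pcna on chromosome 19, rose to 10.98, 12.3 and 5.16 CPM in Kcnip3 KO-5xFAD, against 0.957, 0.532 and 0.836 CPM in WT (3.59 ± 0.39, adjusted p 0.000707). Pcna itself lies on the chromosome of Kcnip3, with its start 4.79 Mb from that of Kcnip3. It averaged 31.9 ± 3.35 CPM in Kcnip3 KO-5xFAD and 44.1 ± 2.53 CPM in WT (SD, n = 3 each, log2 fold change -0.47, adjusted p 0.320). Pcna and Pcna-ps2 together had a log2 fold change of -0.12 (adjusted p 0.818). Each of these pairs holds similar sequence, and their single values carry the same uncertainty as those of Eif3j1 and Eif3j2.

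**Figure D2:**
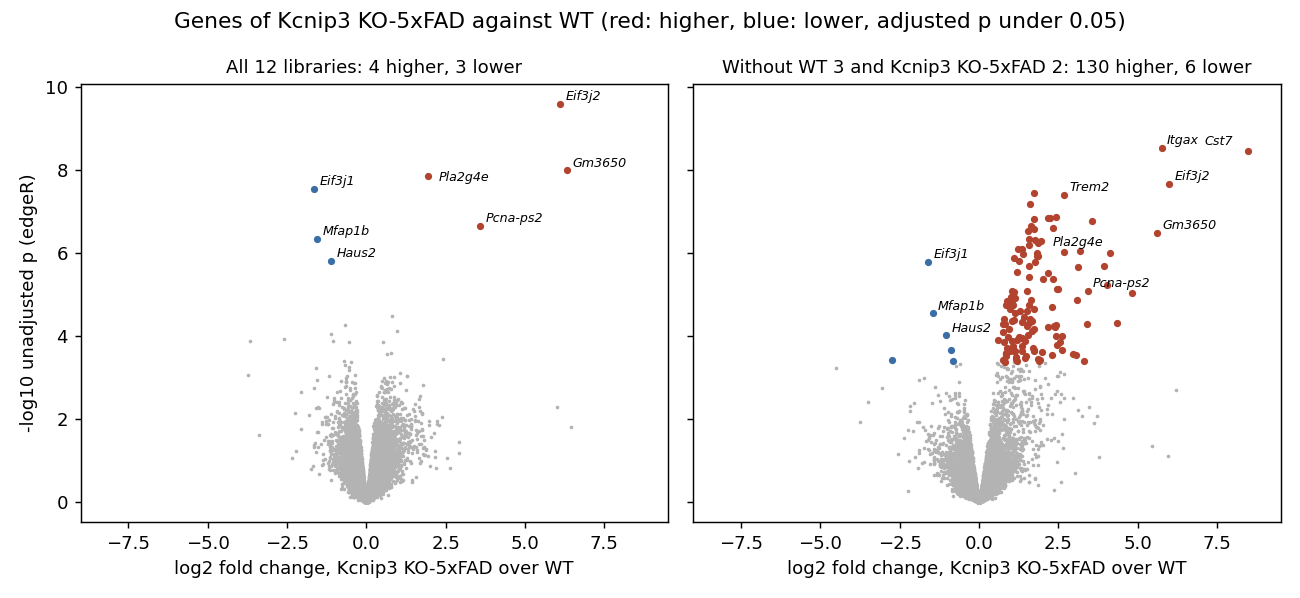
Each point is a gene, with the fitted log2 fold change of Kcnip3 KO-5xFAD over WT on the x axis and the -log10 unadjusted p of edgeR on the y axis; red genes rose and blue genes fell at an adjusted p under 0.05. The left panel, with all 12 libraries, holds 4 red and 3 blue genes, and the right panel, without WT 3 and Kcnip3 KO-5xFAD 2, holds 130 red and 6 blue genes.

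Pla2g4e (ENSMUSG00000050211, minus strand, chr2:120166412-120245335) was the other called gene that rose, beside Eif3j2, Gm3650 and Pcna-ps2. It encodes a calcium-dependent phospholipase and acyltransferase that makes precursors of N-acylethanolamines, among them an endocannabinoid. Its level was 47.1, 42.6 and 50.1 CPM in Kcnip3 KO-5xFAD and 10.6, 14.2 and 11.4 CPM in WT. Every double mutant library lay far above every WT library, including the 2 libraries that went against their labels for Thy1, and the log2 fold change was 1.94 ± 0.17 (adjusted p 7.23e-05). Haus2, a subunit of the augmin complex that nucleates spindle microtubules, had 9.87, 8.22 and 7.49 CPM in Kcnip3 KO-5xFAD and 17.7, 18.2 and 19.5 CPM in WT (-1.11 ± 0.14, adjusted p 0.00346). The groups did not overlap for Haus2 either.

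KChIP3 is known to bind a downstream regulatory element whose core is GTCA, so the promoter of Pla2g4e is shown, from RefSeq (GRCm38.p6, minus strand, chr2:120245286-120245585, 250 bases before to 50 after the start), with the 1 match to GTCA on either strand in capitals.
Pla2g4e: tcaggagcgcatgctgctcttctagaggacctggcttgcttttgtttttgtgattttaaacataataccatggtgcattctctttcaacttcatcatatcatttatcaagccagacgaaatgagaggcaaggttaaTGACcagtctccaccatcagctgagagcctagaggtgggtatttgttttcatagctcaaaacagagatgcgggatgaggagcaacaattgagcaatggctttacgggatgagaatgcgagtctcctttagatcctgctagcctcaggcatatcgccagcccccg
The same 4 letters occur in 83.9% of the promoters of tested genes, 9958 of 11870, so their presence does not set this promoter apart.

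The 4 called genes of chromosome 2, Pla2g4e, Haus2, Mfap1b and Eif3j1, were separated from Kcnip3 by 5.40 to 7.21 Mb between their nearer ends, all on the same side. They were 4 of 214 tested genes within 10 Mb of Kcnip3 (1.87%, beside 0.044% of all tested genes). No other gene of the 1243 tested on this chromosome was called by edgeR. DESeq2 with all libraries called 10 genes in this window, of 29 in all. Without WT 3 and Kcnip3 KO-5xFAD 2, edgeR called 7 of 218 genes in this window (3.21%, beside 0.846% of all tested genes). These were the same 4 with Ltk, Strc and B2m. Strc, which encodes stereocilin of the inner ear, had 0.333, 0.222 and 0.246 CPM in Kcnip3 KO-5xFAD and 1.81, 2.23 and 1.04 CPM in WT. These levels were close to the 3-count limit in the double mutant (-2.74 ± 0.58, adjusted p 0.0464 without the 2 libraries; -2.60 ± 0.50, adjusted p 0.139 with them). Ltk, a receptor tyrosine kinase related to Alk, had 31.05, 53.7 and 45.9 CPM in Kcnip3 KO-5xFAD and 63.2, 80.1 and 60.8 CPM in WT. It was lower in every double mutant library than in every WT library (-0.90 ± 0.18, adjusted p 0.032 without the 2 libraries; -0.64 ± 0.16, adjusted p 0.451 with them). Strc lost its call in 14 of 19 other fits of the 10 libraries, and Ltk lost it in 9 of 20. Flanking sequence of another strain beside a targeted gene was not tested, since the sources used here give no strain.

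**Figure D3:**
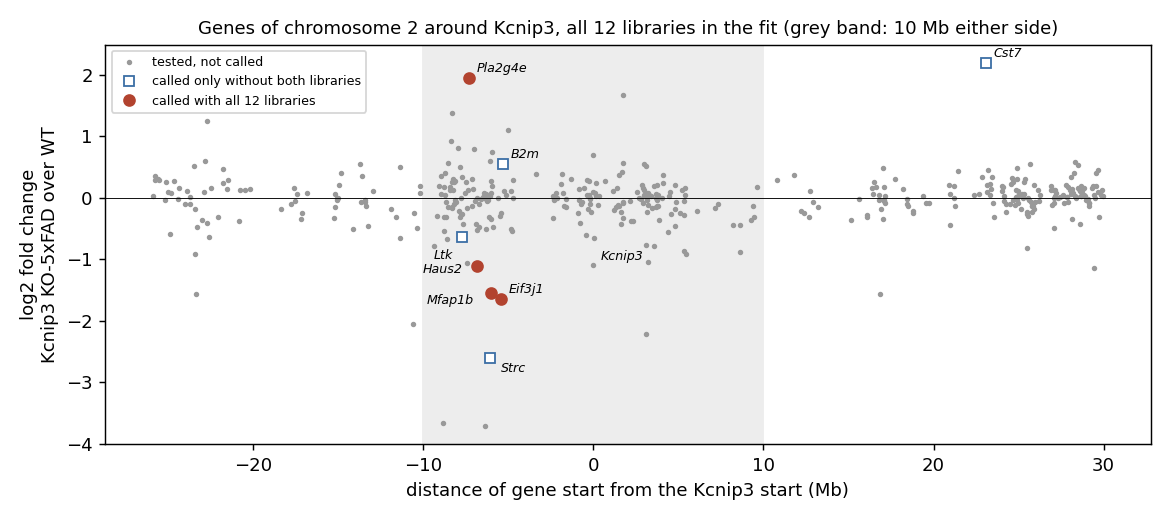
Log2 fold change of Kcnip3 KO-5xFAD over WT in the fit of all 12 libraries (y axis) against the distance of a gene's start from that of Kcnip3 in Mb (x axis), with the 10 Mb on either side in grey. Filled red points mark the 4 genes called with all libraries, at -7.29 to -5.43 Mb, and open squares mark genes called without WT 3 and Kcnip3 KO-5xFAD 2 alone.

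With WT 3 and Kcnip3 KO-5xFAD 2 left out, the comparison of Kcnip3 KO-5xFAD 1 and 3 with WT 1 and 2 was led by genes of microglia. Of 16076 genes tested with 10 libraries, 130 rose (0.809%) and 6 fell (0.0373%), with 935 genes (5.82%) at an unadjusted p under 0.05. DESeq2 called 162 higher (1.01%) and 11 lower (0.0684%). The 2 libraries had been singled out with their Thy1 and microglial levels known, so the number and size of these calls are a description that depends on that choice. The 4 genes that rose with all libraries were among the 130, and the 3 that fell were among the 6. All 130 had a positive log2 fold change with all libraries as well, and for 21 of them the 3 libraries of each genotype did not overlap, a share close to the 14.3% of all genes tested with 12 libraries. With only 2 libraries left in each group, 5710 of all tested genes (35.5%) did not overlap. Leaving out 1 more library, WT 1, WT 2 or Kcnip3 KO-5xFAD 1, left 53, 46 and 50 genes higher, and leaving out Kcnip3 KO-5xFAD 3 gave 148.

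The level of the 130 genes differed between libraries of one genotype. On the scale of log2(CPM + 0.5) minus the mean of WT 1 and WT 2, their median was 1.73 in Kcnip3 KO-5xFAD 1, 1.30 in Kcnip3 KO-5xFAD 3 and 0.18 in Kcnip3 KO-5xFAD 2, against 0.62 in WT 3. WT 3 exceeded Kcnip3 KO-5xFAD 2 for 107 of the genes. The genes were chosen as high in Kcnip3 KO-5xFAD 1 and 3 and low in WT 1 and WT 2, so the place of these 4 libraries follows from the choice, and the values are a description. What these libraries hold was not tested.

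**Figure D4:**
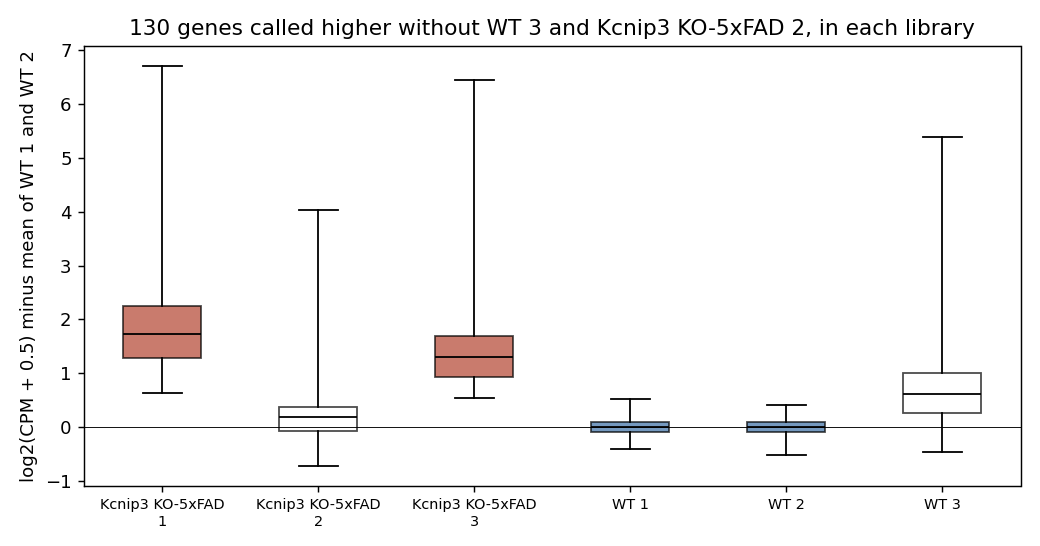
Distribution over the 130 genes of the level in each library, as log2(CPM + 0.5) minus the mean of WT 1 and WT 2 (y axis), with the median, quartiles and full range; libraries left out of the choice of genes are white. The medians were 1.73 and 1.30 in Kcnip3 KO-5xFAD 1 and 3, 0.18 in Kcnip3 KO-5xFAD 2 and 0.62 in WT 3.

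Plaque-associated microglial genes showed the largest differences. Of 31 tested, 19 rose, beside 0.809% of all tested genes, and the other 12 did not pass the test. The 31 genes had a median log2 fold change of 1.50, beside 0.00 over all tested genes. With all libraries their median was 0.96, beside 0.01. Trem2, the lipid-sensing receptor at the head of this programme, had 163, 26.2 and 128 CPM in Kcnip3 KO-5xFAD and 22.3, 22.9 and 70.1 CPM in WT. Kcnip3 KO-5xFAD 1 and 3 lay above every WT library, Kcnip3 KO-5xFAD 2 lay beside WT 1 and WT 2, and WT 3 lay between. The log2 fold change was 2.69 ± 0.22 (adjusted p 0.000129) without the 2 libraries and 1.46 ± 0.65 (adjusted p 0.611) with them. Its adaptor Tyrobp, which carries the signal of Trem2 into the cell, had 167, 36.8 and 146 CPM in Kcnip3 KO-5xFAD and 29.6, 29.1 and 75.8 CPM in WT, in the same order of libraries (2.41 ± 0.22, adjusted p 0.000244 without; 1.38 ± 0.56, adjusted p 0.577 with).

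Cst7, cystatin F, an inhibitor of lysosomal proteases, had the largest ratio of the list. It was at 66.6, 1.00 and 55.9 CPM in Kcnip3 KO-5xFAD and at 0, 0.319 and 26.5 CPM in WT. WT 1 and WT 2 held 3 counts of it together, which gives a ratio of 386 with a 95% counting interval of 132 to 1873 (adjusted p 2.78e-05). With WT 3 and Kcnip3 KO-5xFAD 2 included the log2 fold change was 2.19 ± 1.37 (adjusted p 0.736). Itgax, the integrin CD11c, had 18.96, 0.778 and 16.9 CPM in Kcnip3 KO-5xFAD and 0.319, 0.319 and 7.42 CPM in WT (5.75 ± 0.41, adjusted p 2.78e-05 without; 2.17 ± 1.10, adjusted p 0.67 with). Clec7a, the beta-glucan receptor dectin-1, had 17.9, 0.444 and 6.88 CPM in Kcnip3 KO-5xFAD and 0.851, 0.532 and 5.12 CPM in WT (4.14 ± 0.48, adjusted p 0.000593 without; 1.94 ± 0.99, adjusted p 0.669 with). For all 3 genes WT 3 was well above WT 1 and WT 2, and Kcnip3 KO-5xFAD 2 was well below the other libraries of its genotype.

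Secreted chemokines that draw leukocytes were part of the same group. Ccl6 had 22.5, 3.56 and 16.5 CPM in Kcnip3 KO-5xFAD and 1.81, 1.49 and 12.6 CPM in WT (3.55 ± 0.35, adjusted p 0.000244 without the 2 libraries; 1.41 ± 0.80, adjusted p 0.712 with them). Ccl3 had 8.54, 0.778 and 6.63 CPM in Kcnip3 KO-5xFAD and 0.425, 0.532 and 2.61 CPM in WT (3.95 ± 0.49, adjusted p 0.000927 without; 2.14 ± 0.79, adjusted p 0.541 with). Ccl4 was at 4.88, 0 and 1.84 CPM in Kcnip3 KO-5xFAD and at 0.106, 0.106 and 1.25 CPM in WT. In the 4 remaining libraries its ratio was 32.3 (95% counting interval 8.56 to 273, adjusted p 0.00297), and with all libraries its log2 fold change was 2.16 ± 1.02 (adjusted p 0.617). All 3 chemokines were higher in WT 3 than in WT 1 and WT 2.

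Other genes with large differences were outside the lists. Hcar2, a receptor for niacin and hydroxybutyrate on myeloid cells, had 2.88, 0 and 1.96 CPM in Kcnip3 KO-5xFAD and 0, 0.213 and 1.25 CPM in WT, with a ratio of 23.0 in the 4 remaining libraries (95% counting interval 5.99 to 196, adjusted p 0.0104; 1.68 ± 0.99 on the log2 scale, adjusted p 0.712 with all libraries). Pdcd1, the immune checkpoint receptor PD-1, had 3.66, 0.333 and 3.68 CPM in Kcnip3 KO-5xFAD and 0.213, 0.213 and 1.15 CPM in WT (4.02 ± 0.55, adjusted p 0.0022 without; 2.24 ± 0.75, adjusted p 0.522 with). Tgm1, a protein-crosslinking transglutaminase, had 4.88, 0.111 and 2.09 CPM in Kcnip3 KO-5xFAD and 0.213, 0.425 and 1.36 CPM in WT (3.40 ± 0.58, adjusted p 0.0107 without; 1.80 ± 0.82, adjusted p 0.6 with). These were low transcripts, with at most 4.88 CPM in any of the 6 libraries. Of the 130 genes, 53 belonged to a list and the rest did not. Several of the rest are textbook genes of myeloid cells, among them Lyz2 (lysozyme), Ptprc (CD45), Aif1 (Iba1), Irf8 and Cebpa (transcription factors of myeloid development), Inpp5d (a phosphatase that restrains Trem2 and Fc receptor signalling) and Mpeg1 (a pore-forming protein of macrophages). Their log2 fold changes without the 2 libraries were 2.18, 1.87, 1.18, 1.82, 1.11, 1.03 and 2.23. These 7 were chosen after their values were seen.

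From the genes that rose, 3 promoters are printed from RefSeq (GRCm38.p6, 250 bases before to 50 after the start). Each match to AGGAAGT on either strand is in capitals. The 3 were picked for holding this motif, so they do not show how common it is. AGGAAGT is a purine-rich sequence of the kind bound by ETS factors such as PU.1, the master regulator of myeloid cells, and it was chosen after the calls were seen. The windows are chr2:150570165-150570464 on the plus strand for Cst7, chr4:136886151-136886450 on the minus strand for C1qb and chr11:83593038-83593337 on the minus strand for Ccl6.
Cst7: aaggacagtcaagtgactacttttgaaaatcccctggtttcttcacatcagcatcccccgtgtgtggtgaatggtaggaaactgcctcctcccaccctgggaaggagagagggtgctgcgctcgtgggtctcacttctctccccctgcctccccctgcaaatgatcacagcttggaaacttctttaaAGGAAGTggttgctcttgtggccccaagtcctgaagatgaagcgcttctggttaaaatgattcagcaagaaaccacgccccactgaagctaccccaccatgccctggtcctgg
C1qb: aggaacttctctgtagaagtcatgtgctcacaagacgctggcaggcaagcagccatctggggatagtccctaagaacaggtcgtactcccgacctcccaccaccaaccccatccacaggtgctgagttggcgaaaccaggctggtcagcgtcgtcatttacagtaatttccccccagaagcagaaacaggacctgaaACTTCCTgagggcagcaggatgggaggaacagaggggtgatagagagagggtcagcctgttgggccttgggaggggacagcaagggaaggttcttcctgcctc
Ccl6: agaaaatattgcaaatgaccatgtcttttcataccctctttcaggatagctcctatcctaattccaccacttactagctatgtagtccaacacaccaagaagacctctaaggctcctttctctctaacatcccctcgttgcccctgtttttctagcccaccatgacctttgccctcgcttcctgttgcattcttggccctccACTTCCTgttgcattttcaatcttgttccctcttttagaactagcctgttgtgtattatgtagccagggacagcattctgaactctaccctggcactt
Each was picked for a match and holds 1, which in C1qb and Ccl6 reads as the reverse complement ACTTCCT. The motif occurred in 32 of the 94 called genes with a listed promoter (34%), in 1200 of 11870 tested genes (10.1%) and in 2886 of all 27025 listed genes (10.7%). For Trem2 and Itgax no match was found at a first listed start, and whether a promoter was listed for them is not given here. These shares describe letters and were not tested.

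Homeostatic microglial genes, which mark resting microglia, were also higher in the same libraries. Of 15 tested, 7 rose without the 2 libraries, beside 0.809% of all tested genes. The median log2 fold change of the list was 0.91, beside 0.00 over all tested genes (0.59 with all libraries, where none of the list was called). Csf1r, the growth factor receptor on which microglia depend, had 278, 137 and 221 CPM in Kcnip3 KO-5xFAD and 121, 111 and 169 CPM in WT (1.10 ± 0.13, adjusted p 0.000676 without; 0.66 ± 0.21, adjusted p 0.517 with). Fcrls, an Fc receptor-like scavenger protein, had 80.2, 41.2 and 67.8 CPM in Kcnip3 KO-5xFAD and 29.4, 26.9 and 46.2 CPM in WT (1.40 ± 0.16, adjusted p 0.000593 without; 0.88 ± 0.24, adjusted p 0.504 with). For Olfml3, a secreted microglial glycoprotein, the groups as labelled did not overlap, as for 14.3% of all genes tested with 12 libraries. The margin was narrow, since Kcnip3 KO-5xFAD 2 lay just above WT 3 and well below the other libraries of its genotype. Olfml3 had 68.3, 34.004 and 62.4 CPM in Kcnip3 KO-5xFAD and 27.4, 27.4 and 33.8 CPM in WT (1.25 ± 0.15, adjusted p 0.000773 without; 0.89 ± 0.21, adjusted p 0.429 with).

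Of the complement and antigen presentation genes, 12 of 25 rose without the 2 libraries, beside 0.809% of all tested genes. The median log2 fold change of the list was 1.14 (0.87 with all libraries). C1qa and C1qb encode chains of C1q, the recognition molecule of the classical complement pathway, which microglia produce. C1qb had 289.6, 101 and 236 CPM in Kcnip3 KO-5xFAD and 80.6, 76.99 and 136 CPM in WT (1.74 ± 0.15, adjusted p 0.000129 without; 1.09 ± 0.34, adjusted p 0.522 with). C1qa followed it, with 1.72 ± 0.17 (adjusted p 0.000244) without and 1.06 ± 0.36 (adjusted p 0.534) with the 2 libraries. C4b, the next component of the classical pathway, had 412, 66.6 and 279 CPM in Kcnip3 KO-5xFAD and 73.6, 62.8 and 143 CPM in WT (2.34 ± 0.23, adjusted p 0.000303 without; 1.44 ± 0.57, adjusted p 0.567 with). Fcgr3, a low-affinity receptor for immunoglobulin G, had 52.3, 20.9 and 51.6 CPM in Kcnip3 KO-5xFAD and 17.3, 17.01 and 32.5 CPM in WT (1.60 ± 0.15, adjusted p 0.000175 without; 0.90 ± 0.33, adjusted p 0.54 with). B2m, the invariant chain of class I molecules and a neighbour of Kcnip3 on chromosome 2, had 241, 80.2 and 177 CPM in Kcnip3 KO-5xFAD and 115, 95.9 and 129.5 CPM in WT (0.99 ± 0.15, adjusted p 0.00585 without; 0.55 ± 0.30, adjusted p 0.687 with). In each of these genes the library labelled Kcnip3 KO-5xFAD 2 was the lowest of its genotype and WT 3 the highest of WT.

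Toll-like receptors and their partners sense microbial products and aggregated proteins. Of 14 tested, 5 rose without the 2 libraries, beside 0.809% of all tested genes. The median log2 fold change of the list was 1.17 (0.69 with all libraries). Tlr2 had 7.21, 1.33 and 5.40 CPM in Kcnip3 KO-5xFAD and 0.744, 1.49 and 2.92 CPM in WT (2.49 ± 0.35, adjusted p 0.00262 without; 1.42 ± 0.51, adjusted p 0.534 with). Its coreceptor Cd14 had 16.5, 3.56 and 9.70 CPM in Kcnip3 KO-5xFAD and 2.87, 2.34 and 8.67 CPM in WT (2.33 ± 0.31, adjusted p 0.00166 without; 1.10 ± 0.54, adjusted p 0.642 with). Ly86 (MD-1), the secreted partner of Cd180, reached 1.87 ± 0.22 (adjusted p 0.000645) without and 1.11 ± 0.39 (adjusted p 0.538) with the 2 libraries. Unc93b1, the chaperone that moves nucleic acid-sensing receptors to endosomes, reached 1.09 ± 0.15 (adjusted p 0.0029) without and 0.73 ± 0.24 (adjusted p 0.522) with them.

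Among lysosomal genes, 6 of 24 rose without the 2 libraries, beside 0.809% of all tested genes. The median log2 fold change of the list was 0.45 (0.31 for the 23 tested with all libraries). Ctss, the cathepsin of antigen-presenting cells, had 312, 99.01 and 228 CPM in Kcnip3 KO-5xFAD and 92.6, 82.6 and 166 CPM in WT (1.62 ± 0.17, adjusted p 0.000303 without; 0.91 ± 0.38, adjusted p 0.581 with). Laptm5, a lysosomal membrane protein of blood-derived and microglial cells, had 176, 63.01 and 126 CPM in Kcnip3 KO-5xFAD and 50.1, 56.8 and 76.9 CPM in WT (1.50 ± 0.21, adjusted p 0.00279 without; 0.99 ± 0.32, adjusted p 0.522 with). The housekeeping enzymes Gusb (beta-glucuronidase) and Hexa (a hexosaminidase subunit) differed less, with log2 fold changes of 1.04 ± 0.16 (adjusted p 0.00463) and 0.84 ± 0.13 (adjusted p 0.00482) without the 2 libraries, and of 0.68 ± 0.20 (adjusted p 0.504) and 0.46 ± 0.19 (adjusted p 0.566) with them.

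Interferon response genes had a higher mean in Kcnip3 KO-5xFAD for 25 of 25 tested, with or without the 2 libraries. Over all tested genes this share was 52% with and 51% without them. Only 2 of the list rose, Bst2 and Ifi27, without the 2 libraries, beside 0.809% of all tested genes. The median log2 fold change of the list was 1.07 without and 0.76 with the 2 libraries. Summed over the list, Kcnip3 KO-5xFAD 1 stood at 613 CPM, Kcnip3 KO-5xFAD 3 at 342 CPM and Kcnip3 KO-5xFAD 2 at 189 CPM, against 199 to 264 CPM in WT. Here WT 3 was the lowest WT library, unlike its place for Trem2 or C1qb. Bst2 (tetherin), which holds budding viruses at the membrane, had 37.8, 7.89 and 23.9 CPM in Kcnip3 KO-5xFAD and 10.1, 9.996 and 7.10 CPM in WT (1.62 ± 0.27, adjusted p 0.00895 without; 1.36 ± 0.44, adjusted p 0.522 with). Ifi27 had 104, 53.2 and 86.2 CPM in Kcnip3 KO-5xFAD and 55.3, 58.4 and 46.7 CPM in WT (0.75 ± 0.13, adjusted p 0.0145 without; 0.60 ± 0.19, adjusted p 0.504 with). Without Kcnip3 KO-5xFAD 1 the median of the list was 0.17 with the other 11 libraries.

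Of 22 reactive astrocyte genes, 2 rose without the 2 libraries, Gfap and Psmb8, beside 0.809% of all tested genes. The list median was 0.69 (0.28 for the 21 tested with all libraries). Gfap, the intermediate filament of astrocytes, had 2872, 551 and 1571 CPM in Kcnip3 KO-5xFAD and 427, 375 and 896 CPM in WT. Kcnip3 KO-5xFAD 2 lay between WT 2 and WT 3, so the labelled groups overlapped (2.47 ± 0.40, adjusted p 0.0255 without; 1.56 ± 0.58, adjusted p 0.541 with). The call of Gfap was lost in 8 of the other fits of these 10 libraries. Psmb8, a subunit of the immunoproteasome, had 26.9, 9.22 and 21.2 CPM in Kcnip3 KO-5xFAD and 11.2, 11.3 and 10.1 CPM in WT (1.10 ± 0.18, adjusted p 0.00925 without; 0.82 ± 0.28, adjusted p 0.522 with). Astrocyte identity genes had a median of 0.12 with all libraries and 0.13 without the 2. Aqp4, the water channel of astrocyte endfeet, had 89.04, 60.6 and 77.97 CPM in Kcnip3 KO-5xFAD and 51.2, 39.9 and 58.7 CPM in WT, without overlap (0.88 ± 0.19, adjusted p 0.0636 without the 2 libraries). Summed, the astrocyte identity genes held 6938 to 7371 CPM in Kcnip3 KO-5xFAD and 6242 to 7268 CPM in WT.

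**Figure D5:**
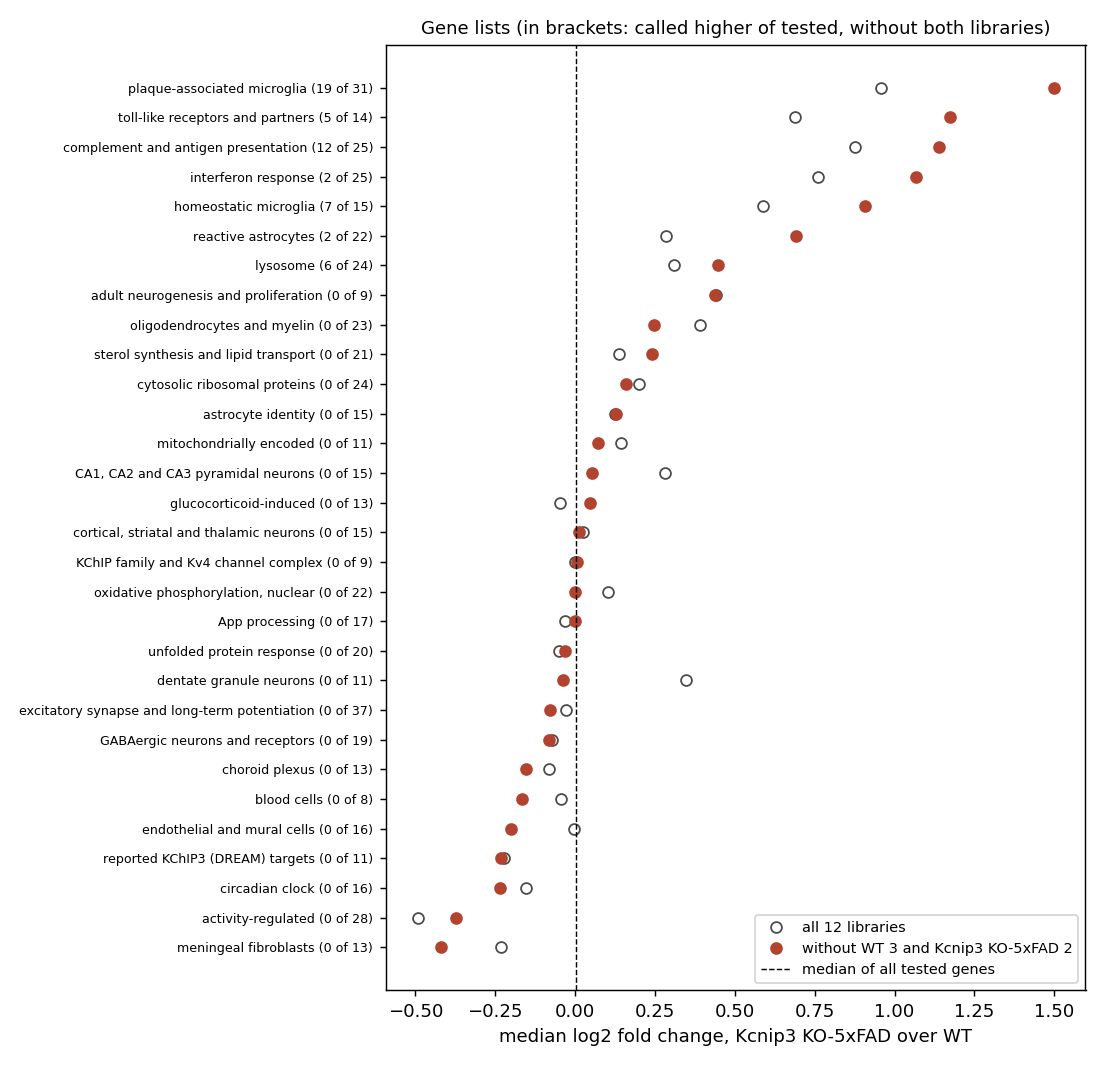
Median log2 fold change of Kcnip3 KO-5xFAD over WT (x axis) for 30 gene lists (y axis), open with all 12 libraries and filled without WT 3 and Kcnip3 KO-5xFAD 2; brackets give the genes called higher of those tested without both libraries. Plaque-associated microglial genes have the highest median, 1.50, and the dashed line marks the median of all tested genes, 0.00.

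Outside these groups the lists held no called gene. In the fit of all libraries edgeR called none of the 535 tested members of any list. At an unadjusted p under 0.05, 93 members were higher and 18 lower, and DESeq2 called Cd9 and Olfml3 higher and Kcnip3 lower. Without the 2 libraries, edgeR called none of the 381 tested members of the 23 lists other than those above. Of these, 10 were higher and 11 lower at an unadjusted p under 0.05, and DESeq2 called Aqp4 and Sqle higher and Dusp1 and Kcnip3 lower.

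Activity-regulated genes, which neurons induce on firing, had the lowest median of the neuronal lists. Of 28 tested, 22 had a lower mean in Kcnip3 KO-5xFAD, and the median log2 fold change was -0.49 with all libraries and -0.37 without the 2. Their sum was 981 to 1580 CPM in Kcnip3 KO-5xFAD and 1711 to 1888 CPM in WT, so the sums did not overlap. Sums of some other lists, such as plaque-associated microglial and cytosolic ribosomal protein genes, did not overlap either. The activity-regulated sum was 896 to 1463 CPM in 5xFAD and 718 to 1799 CPM in Kcnip3 KO. Dusp1, a phosphatase that turns off MAP kinases, had 35.1, 31.9 and 21.9 CPM in Kcnip3 KO-5xFAD and 54.1, 68.7 and 44.1 CPM in WT, without overlap, at a log2 fold change of -0.91 ± 0.25 (adjusted p 0.504) with all libraries. Egr4, an immediate early zinc finger factor, had 30.8, 54.6 and 24.6 CPM in Kcnip3 KO-5xFAD and 36.8, 67.7 and 44.4 CPM in WT, with overlap (-0.91 ± 0.25, adjusted p 0.222 without the 2 libraries).

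The reported targets of KChIP3, which it represses by binding DNA, share 5 of their 11 members with the activity-regulated list. All 11 had a lower mean in Kcnip3 KO-5xFAD with all libraries, at a median of -0.22, and 8 of 11 without the 2, at a median of -0.23. By edgeR or DESeq2, none was called. Fos, an immediate early transcription factor and the best-known such target, had 38.3, 25.003 and 19.2 CPM in Kcnip3 KO-5xFAD and 49.02, 54.2 and 36.5 CPM in WT (-0.76 ± 0.39, adjusted p 0.669 with all libraries). Nr4a1, an orphan nuclear receptor of the same early response, had 157, 157 and 74.5 CPM in Kcnip3 KO-5xFAD and 181, 211 and 158 CPM in WT (-0.76 ± 0.39, adjusted p 1.00 without the 2 libraries). The mean of both genes was lower in the double mutant.

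The KChIP family and the Kv4 channel complex, which KChIP3 joins at the membrane, had a median log2 fold change of 0.00 over 9 genes, Kcnip3 included, with all libraries and of 0.01 without the 2. Dpp10, an auxiliary subunit of Kv4 channels, had 52.9, 35.3 and 63.97 CPM in Kcnip3 KO-5xFAD and 77.6, 80.4 and 116 CPM in WT (-0.85 ± 0.36, adjusted p 0.584 with all libraries). Genes of App processing had a median of -0.03 over 17 genes with all libraries. Mme (neprilysin), a protease that degrades amyloid peptide, had 0.998, 3.22 and 1.47 CPM in Kcnip3 KO-5xFAD and 2.66, 4.25 and 3.03 CPM in WT (-1.48 ± 0.43, adjusted p 0.238 without the 2 libraries).

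Excitatory synapse and long-term potentiation genes had a median of -0.03 over 37 genes with all libraries and -0.08 without the 2. Snap25, a vesicle fusion protein, had 1188, 1065 and 1126 CPM in Kcnip3 KO-5xFAD and 1536, 1284 and 1513 CPM in WT, without overlap (-0.36 ± 0.11, adjusted p 0.512). Its partner Stx1a had 161, 188 and 264 CPM in Kcnip3 KO-5xFAD and 256, 328 and 319.7 CPM in WT, with overlap (-0.56 ± 0.19, adjusted p 0.522). Genes of GABAergic neurons and receptors had a median of -0.07 over 19 genes with all libraries and -0.08 without the 2. Vip, an interneuron peptide, had 17.7, 18.7 and 25.5 CPM in Kcnip3 KO-5xFAD and 42.1, 25.5 and 45.5 CPM in WT, with overlap (-0.87 ± 0.25, adjusted p 0.504).

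Oligodendrocyte and myelin genes had a higher mean in Kcnip3 KO-5xFAD for 22 of 23, at a median of 0.39 with all libraries and 0.25 without the 2. Trf, the iron carrier transferrin that oligodendrocytes make, had 460.5, 456 and 555 CPM in Kcnip3 KO-5xFAD and 356, 284 and 248 CPM in WT, without overlap (0.73 ± 0.23, adjusted p 0.517). Mog, a myelin surface protein, had 60.9, 85.6 and 66.1 CPM in Kcnip3 KO-5xFAD and 57.8, 48.4 and 36.2 CPM in WT (0.58 ± 0.23, adjusted p 0.551). Sterol synthesis and lipid transport genes had a median of 0.14 and 0.24 in the same order of fits. Clu, the apolipoprotein clusterin, had 1661, 1423 and 1472 CPM in Kcnip3 KO-5xFAD and 1117, 1177 and 1139.5 CPM in WT, without overlap (0.45 ± 0.15, adjusted p 0.389 without the 2 libraries). Sqle, an enzyme of cholesterol synthesis, had a log2 fold change of 0.54 ± 0.13 (adjusted p 0.0823) without them.

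Cytosolic ribosomal proteins were higher by mean for 24 of 24 genes, by little, with medians of 0.20 with all libraries and 0.16 without the 2. Rps6, a protein of the small subunit, had 254, 259 and 235 CPM in Kcnip3 KO-5xFAD and 201, 217 and 197 CPM in WT, without overlap (0.28 ± 0.11, adjusted p 0.541). Rpl7, of the large subunit, had a log2 fold change of 0.23 ± 0.09 (adjusted p 0.551). Nuclear genes of oxidative phosphorylation had medians of 0.10 and 0.00, mitochondrially encoded genes of 0.14 and 0.07, genes of the unfolded protein response of -0.05 and -0.03, genes of the circadian clock of -0.15 and -0.24, and glucocorticoid-induced genes of -0.05 and 0.05, with all libraries and without the 2. Npas2, a clock transcription factor, had 22.5, 25.7 and 34.7 CPM in Kcnip3 KO-5xFAD and 41.05, 36.8 and 40.2 CPM in WT (-0.51 ± 0.17, adjusted p 0.517). Edem1, which sends misfolded glycoproteins to degradation, had a log2 fold change of 0.56 ± 0.22 (adjusted p 0.668) without the 2 libraries, and Mt2, a metallothionein, of 0.42 ± 0.19 (adjusted p 0.599) with all libraries.

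Markers of hippocampal neurons were present in every library. Summed CA1, CA2 and CA3 pyramidal markers held 1336 to 1547 CPM in Kcnip3 KO-5xFAD and 1177 to 1460 CPM in WT, with list medians of 0.28 with all libraries and 0.05 without the 2. Dentate granule neuron markers held 286 to 466 CPM in Kcnip3 KO-5xFAD and 277 to 301 CPM in WT, and their median was 0.35 with all libraries but -0.04 without the 2. C1ql2, a synaptic organiser of mossy fibres, had 113, 111 and 37.4 CPM in Kcnip3 KO-5xFAD and 39.7, 50.5 and 21.5 CPM in WT (1.23 ± 0.46, adjusted p 0.541). Adult neurogenesis and proliferation genes had a median of 0.44 in both fits. Calb2 (calretinin), a calcium-binding protein of immature granule neurons, had 145, 85.01 and 76.001 CPM in Kcnip3 KO-5xFAD and 70.5, 47.9 and 43.8 CPM in WT (0.92 ± 0.31, adjusted p 0.534).

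Transcripts of neighbouring tissue differed between libraries of one genotype. Choroid plexus markers summed to 554, 648 and 5389 CPM in the 3 Kcnip3 KO-5xFAD libraries, of which replicate 3 is the high one, and to 3994, 4460 and 248 CPM in the 3 WT libraries, of which replicate 3 is the low one. Ttr (transthyretin), the carrier that choroid plexus secretes, made up most of this, with 341, 371 and 4252 CPM in Kcnip3 KO-5xFAD and 3176, 3764 and 83.5 CPM in WT. None of the 13 markers was at 0 in all libraries, and the list median was -0.08 with all libraries and -0.15 without the 2. Meningeal fibroblast markers summed to 269 to 382 CPM in Kcnip3 KO-5xFAD and 239 to 441 CPM in WT (medians -0.23 and -0.42), and endothelial and mural markers to 571 to 706 CPM in Kcnip3 KO-5xFAD and 544 to 757 CPM in WT (medians 0.00 and -0.20). Cortical, striatal and thalamic markers summed to 346 to 457 CPM in Kcnip3 KO-5xFAD and 374 to 515 CPM in WT (medians 0.02 and 0.01). Tbr1, a cortical projection neuron factor, had 19.8, 28.4 and 34.99 CPM in Kcnip3 KO-5xFAD and 48.2, 48.5 and 56.5 CPM in WT (-0.88 ± 0.29, adjusted p 0.522). Blood cell markers summed to 91.7 to 244 CPM in Kcnip3 KO-5xFAD and 124 to 172 CPM in WT (medians -0.04 and -0.17). Plaque-associated microglial genes summed to 8418, 5229 and 7510 CPM in Kcnip3 KO-5xFAD 1, 2 and 3 and to 4657, 4948 and 5050 CPM in WT 1, 2 and 3. WT 3 thus had the lowest choroid plexus sum and, by a small margin, the highest microglial sum of WT. In the double mutant, replicates 1 and 2 both had low choroid plexus sums, with the highest and the lowest microglial sum of that genotype. The part of dissection in the other results was not tested.

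The values of the double mutant are set beside those of the single changes. All contrasts here share the WT libraries, and the values that follow leave out WT 3 and Kcnip3 KO-5xFAD 2. Trem2 had log2 fold changes against WT of 2.69 in Kcnip3 KO-5xFAD, 3.09 in 5xFAD and -0.05 in Kcnip3 KO. Cst7 rose in the double mutant and in 5xFAD, where its level was 68.96, 121 and 88.8 CPM, and was at 0.105, 0 and 0.230 CPM in Kcnip3 KO. For Gfap the log2 fold changes were 2.47 in Kcnip3 KO-5xFAD, 2.59 in 5xFAD and 0.56 in Kcnip3 KO, and for C1qb they were 1.74 in Kcnip3 KO-5xFAD, 2.07 in 5xFAD and 0.03 in Kcnip3 KO. Of the 31 plaque-associated microglial genes, 19 rose in Kcnip3 KO-5xFAD (0.809% of all tested genes did), 23 in 5xFAD (1.22% of all) and 0 in Kcnip3 KO (0.0249% of all), with medians of 1.50, 1.75 and -0.06. Interferon response genes had medians of 1.07 in Kcnip3 KO-5xFAD, 0.59 in 5xFAD and -0.65 in Kcnip3 KO. Among the called genes near Kcnip3, Pla2g4e had log2 fold changes of 1.96 in Kcnip3 KO-5xFAD, -0.08 in 5xFAD and 2.14 in Kcnip3 KO, Eif3j1 of -1.59 in Kcnip3 KO-5xFAD, -0.14 in 5xFAD and -1.39 in Kcnip3 KO, and B2m of 0.99 in Kcnip3 KO-5xFAD, 1.21 in 5xFAD and -0.81 in Kcnip3 KO.

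Whether the double mutant departs from the sum of the 5xFAD and Kcnip3 KO changes was tested as the interaction of both factors. With all libraries edgeR called 0 of 15905 genes (0%), with 836 (5.26%) at an unadjusted p under 0.05, and DESeq2 called 6 (0.0377%). Without the 2 libraries it called 1 of 16076 genes (0.00622%), with 555 (3.45%) at an unadjusted p under 0.05, and DESeq2 called 2 (0.0124%). The called gene was Fabp7, a fatty acid binding protein of radial glia, astrocytes and neural progenitors. Its level was 73.8, 38.6 and 62.9 CPM in Kcnip3 KO-5xFAD, 22.6, 31.6 and 25.8 CPM in 5xFAD, 18.1, 27.8 and 21.8 CPM in Kcnip3 KO and 36.4, 33.1 and 37.9 CPM in WT. Every Kcnip3 KO-5xFAD library was above every WT library, whereas every 5xFAD and Kcnip3 KO library was below. The log2 fold changes against WT were 0.98 in Kcnip3 KO-5xFAD, -0.38 in 5xFAD and -0.63 in Kcnip3 KO, and the double mutant exceeded their sum by 1.99 ± 0.25 on the log2 scale (adjusted p 0.0417) without the 2 libraries. With all libraries the departure was 1.80 ± 0.31 (adjusted p 0.43) and was not called. Without the 2 libraries, no gene was called for departure with the replicate block, with a filter of at least 50 counts in 3 libraries, with the length and GC correction, or on leaving out WT 1, WT 2, Kcnip3 KO 1, Kcnip3 KO 3, 5xFAD 3 or Kcnip3 KO-5xFAD 1. The difference between Kcnip3 KO-5xFAD and WT had an adjusted p of 0.032 without the 2 libraries and of 0.504 with them (0.71 ± 0.21). Trem2, C1qb and Gfap had departures of -0.35 ± 0.28 (adjusted p 0.991), -0.36 ± 0.19 (adjusted p 0.991) and -0.68 ± 0.50 (adjusted p 0.991) from the sum, which did not pass the test and do not show that the effects add up.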

How the data were processed

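Per the labels' protocols, the TruSeq mRNA kit was used for RNA-seq. Per the submitters' processing notes, the tools were FastQC 0.11.9, HISAT2 2.1.0, featureCounts, R 4.2.1 and edgeR 3.38.4 on mm10. The sources used here do not give the strand setting, the annotation release or the handling of multiply mapped reads. The authors deposited raw counts for 55385 Ensembl genes and log2 TPM for 16120 of them, and the counts were used here. The log2 TPM values, those of genes over 1 CPM in at least 3 libraries, served as an alternative. Symbols and positions came from GENCODE M21 (GRCm38, the assembly of mm10) for 55144 genes, and the other 241 held 0.00278% of counts.

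All 12 libraries, 3 per genotype, were fitted by genotype in edgeR 4.0.16 (R 4.3.3), using TMM, filterByExpr and a robust quasi-likelihood test, and again without WT 3 and Kcnip3 KO-5xFAD 2. The common coefficient of variation was 0.144 and 0.142. A gene was called at a Benjamini-Hochberg adjusted p under 0.05 over all tested genes, with no minimum fold. Levels are TMM-scaled CPM, and log2 fold changes are ± SE. The 12 libraries held 7664407 to 11310714 counts, and the limits and exact intervals from counts cover counting error only. The script was tested on simulated data.

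Members and gene lists were chosen with earlier results of these data known. Named genes were Kcnip3, Thy1, App, the 12 largest called log2 fold changes in each direction without overlap and with a mean of at least 1 CPM, called genes within 10 Mb of Kcnip3, up to 4 called members of a list or else up to 2 by smallest p, and genes called for departure from additivity. Copies of called genes were named after their values were seen. A named gene called in neither fit is mostly given only from the fit, with or without the 2 libraries, in which its p was smaller. Not all genes of the rule are described, and some are not reported here. Alternatives were other scalings, filters and tools (DESeq2 1.42.0, limma 3.58.1, mgcv 1.9.3 for a length and GC correction), a replicate block, a fit of the 2 groups alone and leaving out each library. Summing copies was chosen after seeing the data.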

Additional observations from a re-analysis of the deposited data

Results flagged for a closer look

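Fabp7, the fatty acid binding protein of glia and progenitors, was called for a difference between the genetic backgrounds only in the main fit without WT 3 and Kcnip3 KO-5xFAD 2. These 2 libraries were left out with their Thy1 and microglial levels known. Its log2 fold change in Kcnip3 KO-5xFAD exceeded the sum of the 5xFAD and Kcnip3 KO changes by 1.99 (edgeR interaction, adjusted p 0.0417) without WT 3 and Kcnip3 KO-5xFAD 2. With all 12 libraries the departure was 1.80 (adjusted p 0.43) and was not called, and with 10 libraries the call was lost with the replicate block, a stricter filter, the length and GC correction and on leaving out any of 6 single libraries. Its 3 Kcnip3 KO-5xFAD libraries had 73.8, 38.6 and 62.9 CPM, and the 3 WT libraries had 36.4, 33.1 and 37.9 CPM.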

How the results depend on the processing

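With all 12 libraries, 23 alternatives were run, and 20 with 10 libraries. No filter gave 324 genes higher, 231 lower and 272 departing from additivity with 12 libraries, and 271, 55 and 64 with 10. DESeq2 gave 12, 17 and 6 with 12 libraries, and 11 lower and 2 departing with 10. A fit of Kcnip3 KO-5xFAD and WT alone gave 7 lower with 12 libraries and 15 with 10. Leaving out WT 3 and Kcnip3 KO-5xFAD 2 together turned 4 higher, 3 lower and 0 departing genes into 130, 6 and 1. With 10 libraries, limma on log2 TPM gave 3 lower, and no gene departed from additivity (0) with at least 50 counts in 3 libraries, with the replicate block or with the length and GC correction. The cause of these shifts was not tested.

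Deviations of Kcnip3 KO-5xFAD and WT libraries with the same replicate number had r of 0.01, 0.22 and -0.02 for numbers 1, 2 and 3. Pairs of unlike number had r from -0.18 to 0.15. So few values cannot show or exclude a pairing by number, and none was assumed in the main fits. With the replicate block, 4 genes were higher and 3 lower with 12 libraries, 1 gene departed from additivity, and 117 were higher and 2 lower with 10. Leaving out single libraries gave 4 to 76 genes higher, 3 to 6 lower and 0 to 4 departing with 12 libraries, and 46 to 148, 1 to 10 and 0 to 8 with 10. The 4 departing genes came without 5xFAD 1, and 3 came without Kcnip3 KO 2. With 10 libraries, the 8 came without Kcnip3 KO-5xFAD 3. Leaving out a further Kcnip3 KO-5xFAD or WT library there left 1 library, which was assumed to vary like the other groups.

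The sign turned for Kcnj13 (-2.54 to 0.18) and Ttr (-3.35 to 0.29) on leaving out 1 of 10 libraries, above 0 without Kcnip3 KO-5xFAD 1, and for Eif3j2 (-0.49 with 12 libraries, -0.40 with 10) and Pcna-ps2 (-0.12 and -0.16) on summing copies. Of 2823 comparisons of a named gene, these included, 2598 kept their direction and side of the threshold, 94 lost a call and 125 gained one. Of 1290 comparisons of a list median, 1270 moved by less than the median SE. Transcripts under about 0.3 CPM are at the 3-count limit of these libraries.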
